A study of Mus musculus with 6 samples.

Results

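AMP-activated protein kinase (AMPK) is an enzyme that senses falling cellular energy and, when active, restrains fat synthesis and favours fuel oxidation. Each AMPK complex holds a catalytic α, a scaffolding β and a nucleotide-binding γ subunit. Of the γ subunits, that encoded by Prkag3 is known mainly from skeletal muscle, whereas those encoded by Prkag1 and Prkag2 are found in many tissues. In fat, AMPK is known for phosphorylating the acetyl-CoA carboxylases and hormone-sensitive lipase. The genes described here are the 7 that encode AMPK subunits, namely Prkaa1, Prkaa2, Prkab1, Prkab2, Prkag1, Prkag2 and Prkag3, and they were chosen by symbol out of the 56980 genes listed in the deposited matrices. The family was proposed for description because Prkag3 was higher in aged adipocytes in these same libraries, so the values of Prkag3 in adipocytes are given as a description with no test.

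Single-nucleus RNA sequencing was performed on white adipose tissue of female C57BL/6J mice. The 6 libraries analysed comprised 2 of subcutaneous (inguinal) adipose tissue (SAT) at 2 months, 2 of SAT at 24 months and 2 of visceral (gonadal) adipose tissue (VAT) at 24 months. SAT at these ages is also called young and aged SAT. No genotype or treatment was given for any group, and young VAT was not used here. For the aged mice the design text of the series states an older age than the labels do, and the labels are followed. The study names 2 mice per age group, so the aged SAT and VAT libraries share mice. Since no source says which libraries belong to the same mouse, no pairing was used.

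The libraries held 8061862 to 16226690 UMIs (unique molecular identifiers, one per captured RNA molecule), and 2490 to 5776 nuclei per library passed the filters, with a median of 1380 to 1878 UMIs per nucleus. The labels call every library adipocytes, but adipocyte nuclei made up only 3.02% to 66.1% of them. In the adipocyte nuclei the summed adipocyte markers stood at 19020 to 29900 CPM (UMIs of a gene per 1000000 UMIs of all genes in the same nuclei), against 682 to 5983 CPM in the other nuclei of the same libraries. VAT replicate 2 stood apart. Its ovary and oviduct markers summed to 2833 CPM against 25.1 to 51.0 CPM elsewhere, and only 153 of its nuclei were adipocytes, against 507 to 2929 in the other libraries. At most 0.769% of the barcodes of the smaller library of any pair were shared. The labels give no batch beyond a date that all libraries share.

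The γ subunit genes are encoded on different chromosomes. On GRCm39, Prkag1 (ENSMUSG00000067713) lies on chromosome 15 from 98710177 to 98729434, Prkag2 (ENSMUSG00000028944) on chromosome 5 from 25067728 to 25306439, and Prkag3 (ENSMUSG00000006542) on chromosome 1 from 74775818 to 74788380, all on the minus strand. Prkag2 spans 239 kb, Prkag1 19.3 kb and Prkag3 12.6 kb. The 250 bases upstream of the canonical transcript start of each, from GENCODE M39 annotation on GRCm39, are shown because Prkag3 was the member with the largest difference between the ages, and Prkag1 and Prkag2 encode the same kind of subunit. They are written 5′ to 3′ on the strand of the gene, at chr15:98729404-98729653, chr5:25306440-25306689 and chr1:74788381-74788630, and capitals mark matches to the E-box motif CANNTG, which reads the same on both strands.
Prkag1: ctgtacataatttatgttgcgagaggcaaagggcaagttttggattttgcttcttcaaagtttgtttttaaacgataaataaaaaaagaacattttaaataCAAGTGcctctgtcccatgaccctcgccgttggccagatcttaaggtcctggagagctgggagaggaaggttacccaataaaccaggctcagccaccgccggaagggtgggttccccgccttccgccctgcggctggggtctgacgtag
Prkag2: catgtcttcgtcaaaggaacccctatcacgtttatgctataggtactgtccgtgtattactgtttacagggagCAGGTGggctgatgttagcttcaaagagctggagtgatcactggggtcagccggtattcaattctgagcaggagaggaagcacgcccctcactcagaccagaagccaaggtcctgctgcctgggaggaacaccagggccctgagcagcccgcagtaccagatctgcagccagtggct
Prkag3: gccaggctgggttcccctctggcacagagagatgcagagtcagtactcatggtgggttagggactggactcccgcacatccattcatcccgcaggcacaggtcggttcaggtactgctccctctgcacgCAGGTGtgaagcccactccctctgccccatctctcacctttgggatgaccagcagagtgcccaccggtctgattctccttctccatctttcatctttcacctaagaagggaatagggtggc
Each window held 1 E-box, and 64.8% of the 21618 upstream regions of the same length held at least 1. Searched on both strands, the nuclear receptor half-site AGGTCA was in none of these windows and in 13.1% of all regions. The CCAAT box (CCAAT) and the GC box (GGGCGG) each matched once, in the Prkag1 window, and were in 36.5% and 36.4% of all regions. TATAAA and TGACGTCA matched in none of the windows, and in 11.95% and 1.69% of all regions. A match in such a window describes the letters only.

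In adipocytes, Prkag3 transcripts were close to absent from SAT at 2 months and plain in every aged library. Prkag3 stood at 0.539 and 1.13 CPM in the SAT libraries at 2 months, each from 1 UMI, with exact 95% counting intervals of 0.0137 to 3.01 and 0.0285 to 6.28 CPM. In SAT at 24 months it stood at 63.8 CPM (94 UMIs, 51.6 to 78.1) and 39.7 CPM (226 UMIs, 34.7 to 45.3). In VAT at 24 months it stood at 54.7 CPM (440 UMIs, 49.7 to 60.0) and 35.2 CPM (15 UMIs, 19.7 to 58.1). All 4 aged libraries lay above both young ones, and the aged depots overlapped each other. Of all genes tested in adipocytes, 60.5% had SAT groups that did not overlap between the ages. The mean was 0.833 ± 0.416 CPM in SAT at 2 months, 51.8 ± 17.0 in SAT at 24 months and 45.0 ± 13.7 in VAT at 24 months (SD, n = 2 each).

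With the UMIs of both libraries of a group added up, the ratio of SAT at 24 months to SAT at 2 months was 61.3, with an exact 95% counting interval of 16.8 to 508, from 320 against 2 UMIs. The ratio rested on the 2 young UMIs, and it was 39.6 without SAT 2 months replicate 1. The ratio of VAT at 24 months to SAT at 2 months was 73.6 (20.3 to 609), and age and depot cannot be told apart in it. VAT against SAT at 24 months gave 1.2 (1.04 to 1.39), whereas the mean over libraries was lower in VAT than in SAT, so no direction between the depots can be read. VAT replicate 1 gave 440 of the 455 VAT UMIs. These intervals cover counting error only.

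Only a minority of aged adipocyte nuclei held a Prkag3 UMI. In SAT at 24 months they were 65 of 688 and 161 of 2253 nuclei, in VAT 311 of 2929 and 11 of 153, and in SAT at 2 months 1 of 897 and 1 of 507. Of these, 17, 46, 81 and 4 nuclei of the aged libraries, in the same order, held at least 2 UMIs, and the highest count in a single nucleus was 10. A minority also held Prkaa1, which stood at 25.85 to 69.26 CPM in the aged libraries. It had a UMI in 5.88% to 11.67% of their adipocyte nuclei. After every nucleus was thinned to 1000 UMIs, the share with Prkag3 was 0.112% and 0% in SAT at 2 months (0 of 507 nuclei, with an upper limit of 0.725%), 5.38% and 3.37% in SAT at 24 months, and 5.43% and 3.92% in VAT. The adipocyte nuclei had median depths of 1575 to 2241 UMIs. In T cells, which are not known to use this gene, the thinned share was 0% to 0.185% in the libraries with at least 20 T cell nuclei, at median depths of 1242 to 1445 UMIs. The aged adipocyte shares lay above these T cell shares. VAT replicate 1 had only 9 T cell nuclei and gave no such share, and its macrophages, at a median depth of 1412 UMIs, had a thinned share of 1.56% (exact 95% interval 0.427% to 3.95%) beside 5.43% in its adipocytes.

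**Figure D1:**
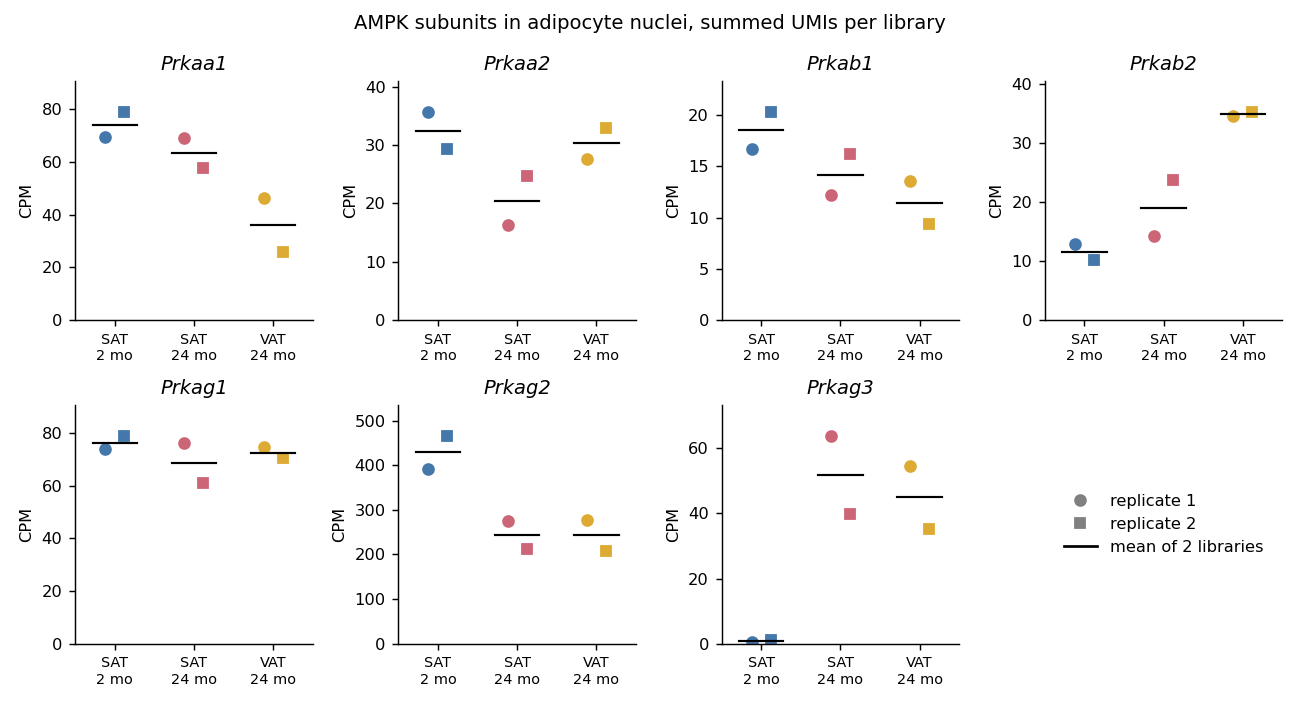
CPM of the 7 AMPK subunit genes in adipocyte nuclei of each library (circles replicate 1, squares replicate 2, black lines the mean of 2 libraries; each panel has its own axis from 0). Prkag3 spans 35.2 to 63.8 CPM in the 4 aged libraries, whereas both young SAT libraries lie near 0 (0.539 and 1.13 CPM), Prkag2 is lower in all aged libraries than in SAT at 2 months, and Prkab2 is at 34.7 and 35.2 CPM in VAT.

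The adipocyte nuclei of different ages fell mostly into different clusters, which is a description, since clusters and values come from the same nuclei (the 7 members were kept out of the clustering genes). A cluster led by Acacb, Cfd and Cyp2e1 held 94.98% and 94.87% of the adipocytes of SAT at 2 months, where Prkag3 stood at 0.574 and 1.199 CPM. The 231 nuclei of VAT replicate 1 in that cluster held 1 Prkag3 UMI, or 2.13 CPM. A cluster led by Npr3, G0s2 and Retn held 60.8% and 58.2% of the SAT adipocytes at 24 months, with Prkag3 at 66.8 and 39.5 CPM, and in VAT Prkag3 reached 61.7 and 33.6 CPM there. In a cluster led by Fam13a, Cyp2e1 and Art3, the aged SAT libraries had 13.03 and 2.57 CPM (2 and 1 UMIs) and VAT replicate 1 had 38.9 CPM (112 UMIs), while the 13 nuclei of VAT replicate 2 held 0 UMIs, with an exact 95% upper limit of 186 CPM. In both aged SAT libraries Prkag3 was thus lower in this cluster than in the one led by Npr3.

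Prkag2, the γ subunit gene with the most UMIs in adipocytes, had its highest values in young SAT. It stood at 392 and 466 CPM in young SAT, 274 and 213 CPM in aged SAT, and 278 and 207 CPM in VAT. The young and aged SAT libraries did not overlap. The difference with age, after scaling by the trimmed mean of M-values (TMM), was -0.65 ± 0.27 on the log2 scale (SE, edgeR quasi-likelihood test, adjusted p = 0.135), short of the threshold of 0.05 after Benjamini-Hochberg adjustment. With library-size scaling, which moved the median of all genes to -0.18, it was -0.84 with an adjusted p of 0.0471 in edgeR. VAT and SAT at 24 months differed by 0.05 ± 0.28 (adjusted p = 0.984). Genes such as Prkag2os1 and Prkag2os2 and 5 others overlap Prkag2, and whether the counting used strand is not given in the sources used here, so reads of overlapping genes may be included.

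Prkag1 was the most even member, with 73.9 and 78.9 CPM in SAT at 2 months, 76.0 and 61.2 CPM in SAT at 24 months, and 74.5 and 70.5 CPM in VAT. Its groups overlapped in both comparisons. The fitted differences were 0.00 ± 0.26 with age and 0.14 ± 0.25 between depots (edgeR, adjusted p = 1 and 0.958). With library-size scaling Prkag1 was at -0.18 with age, as was the median of all genes.

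As a share of all γ subunit UMIs in adipocytes, Prkag3 made up 0.116% and 0.207% in SAT at 2 months, 15.4% and 12.7% in SAT at 24 months, and 13.4% and 11.3% in VAT. Nuclear RNA is largely unspliced, so a longer gene can give more UMIs. Per kb of gene span, the mean of Prkag3 was 4.12 ± 1.36 CPM in SAT at 24 months, beside 3.56 ± 0.55 for Prkag1 and 1.02 ± 0.18 for Prkag2 (SD, n = 2). Prkag3 and Prkag1 did not differ beyond their spread, and both lay above Prkag2. In SAT at 2 months the order per kb was Prkag1 at 3.97, Prkag2 at 1.80 and Prkag3 at 0.0663 CPM. Per kb of exon the order in SAT at 24 months was another, with Prkag2 at 74.5 ± 13.3, Prkag1 at 41.5 ± 6.35 and Prkag3 at 16.7 ± 5.50 CPM, so the rank of the γ genes depends on which length is used.

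Of the catalytic subunits, Prkaa1 encodes α1, the widespread form, and Prkaa2 encodes α2, the form prominent in muscle. Prkaa1 (chromosome 15, 5173186 to 5211750) stood at 69.6 and 78.9 CPM in adipocytes of SAT at 2 months, 69.3 and 57.9 CPM in SAT at 24 months, and 46.3 and 25.8 CPM in VAT. The values in VAT lay below those in SAT at 24 months, with a difference of -0.61 ± 0.30 (edgeR, adjusted p = 0.757), and the difference with age was -0.06 ± 0.29 (adjusted p = 0.912). Prkaa2 (chromosome 4, 104886845 to 104967102) stood at 35.6 and 29.3 CPM in young SAT, 16.3 and 24.6 CPM in aged SAT, and 27.6 and 32.9 CPM in VAT. The aged SAT libraries were the lowest, and neither difference passed the test, at -0.48 ± 0.34 with age (edgeR, adjusted p = 0.368) and 0.52 ± 0.34 between depots (adjusted p = 0.816). Of all α subunit UMIs, Prkaa2 made up 33.8% and 27.1% in SAT at 2 months, 19.0% and 29.9% in SAT at 24 months, and 37.3% and 56.0% in VAT, the last from 25 UMIs with an exact 95% interval of 34.9% to 75.6%.

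Of the scaffold subunits, Prkab2 encodes β2 and Prkab1 encodes β1, and both carry the glycogen-binding module of the complex. Prkab2 (chromosome 3, 97565509 to 97581146) stood at 12.9 and 10.2 CPM in adipocytes of SAT at 2 months, 14.3 and 23.7 CPM in SAT at 24 months, and 34.7 and 35.2 CPM in VAT. The groups did not overlap in either comparison. The differences were 0.89 ± 0.39 with age (edgeR, adjusted p = 0.152) and 0.87 ± 0.36 between depots (adjusted p = 0.673), neither past the threshold. Prkab1 (chromosome 5, 116151645 to 116162567) stood at 16.7 and 20.3 CPM in young SAT, 12.2 and 16.2 CPM in aged SAT, and 13.5 and 9.40 CPM in VAT, with differences of -0.18 ± 0.41 and -0.16 ± 0.41 (edgeR, adjusted p = 0.815 and 0.968). Prkab2 made up 43.6% and 33.3% of the β subunit UMIs in SAT at 2 months, 53.8% and 59.5% in SAT at 24 months, and 71.9% and 78.9% in VAT. No test was run on these shares, which in VAT replicate 2 rest on 19 UMIs.

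Thus 0 of the 6 subunit genes other than Prkag3 were called in adipocytes in either comparison. With age, 1774 of 12947 genes, or 13.7%, were called, and between depots 18 genes, or 0.139%. At an unadjusted p under 0.05, 2 of the 6 passed with age (Prkab2 and Prkag2), as did 30% of all genes, and 1 between depots (Prkab2), against 6.8% of all genes. DESeq2 called 0 in either. With age, 5 of the 6 had groups that did not overlap, as did 60.5% of all genes tested, and between depots 3 of the 6, against 34.7%. Both comparisons use the same SAT libraries at 24 months.

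**Figure D2:**
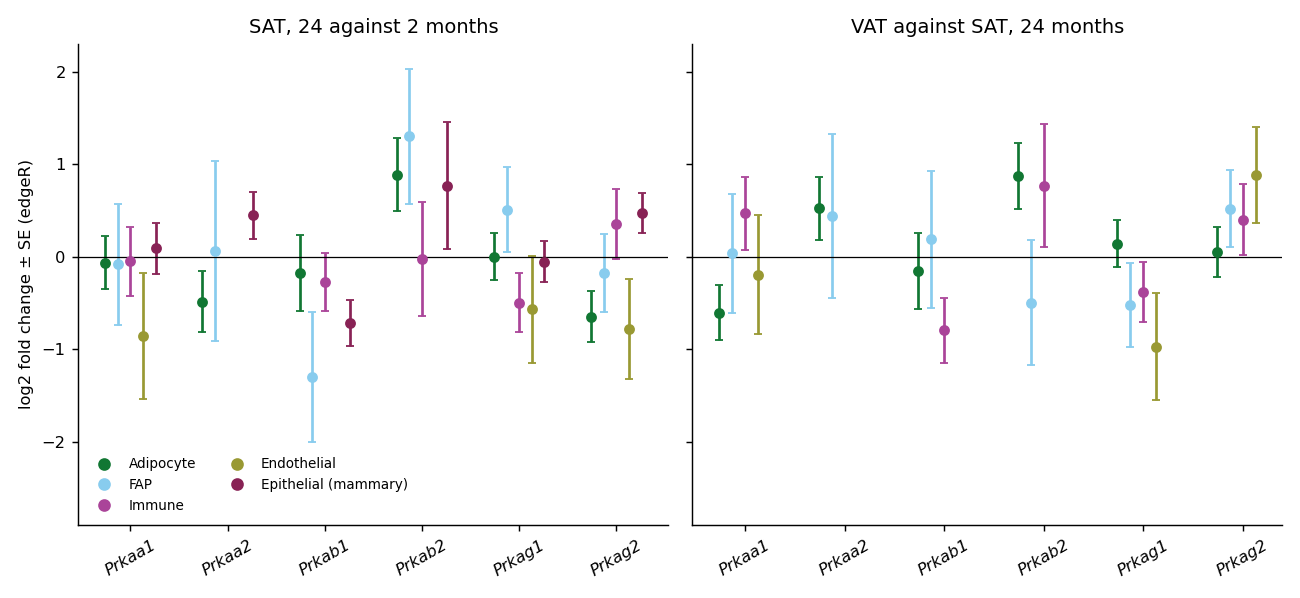
Log2 fold change ± SE (edgeR) of the 6 AMPK subunit genes other than Prkag3 in 5 cell classes, with age in SAT on the left and between depots at 24 months on the right; a member that a class did not pass on to the test has no point, and the epithelial class was compared with age only. None passed an adjusted p of 0.05, and Prkab2 in adipocytes lies at 0.89 and 0.87.

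Outside adipocytes, Prkag3 was highest in skeletal muscle nuclei. A cluster of 25 such nuclei in SAT 24 months replicate 2 held 13 Prkag3 UMIs, or 279 CPM, in 10 of the nuclei. The same nuclei held 12 UMIs of Prkaa2 (258 CPM) and 4 of Prkab2 (85.8 CPM), 2 of Prkab1 (42.9 CPM), and 0 of Prkaa1, Prkag1 and Prkag2, where 3 UMIs would be 64.4 CPM. In SAT 2 months replicate 1, 3 further muscle nuclei held 4 Prkag3 UMIs. That limit fell within the values of the 4 aged adipocyte libraries for Prkaa1 (25.8 to 69.3 CPM) and Prkag1 (61.2 to 76.0 CPM), and below all of theirs for Prkag2 (207 to 278 CPM).

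In the other classes Prkag3 was low. Over libraries with at least 20 nuclei of a class, it ranged from 0 to 4.93 CPM in FAPs (fibro-adipogenic progenitors, the precursors of fat and fibrous cells), 0 to 4.92 CPM in endothelial nuclei, 0 to 4.37 CPM in mammary epithelial nuclei, 0 to 1.13 CPM in T cells and 0 to 7.56 CPM in B cells. Macrophages reached 17.3 CPM in VAT replicate 1, from 8 UMIs in 256 nuclei, and mesothelial nuclei, which line the visceral cavity, stood at 8.85 and 2.92 CPM in VAT. VAT replicate 1 was also the library with the largest share of adipocytes, 66.1%. Nuclei of unnamed clusters held 2.24 to 36.1 CPM, the highest again in VAT replicate 1. These clusters may include adipocyte nuclei. The largest of them, with 483 nuclei, scored highest on the adipocyte markers (0.94, next list 0.22), short of the lead needed for a name.

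**Figure D3:**
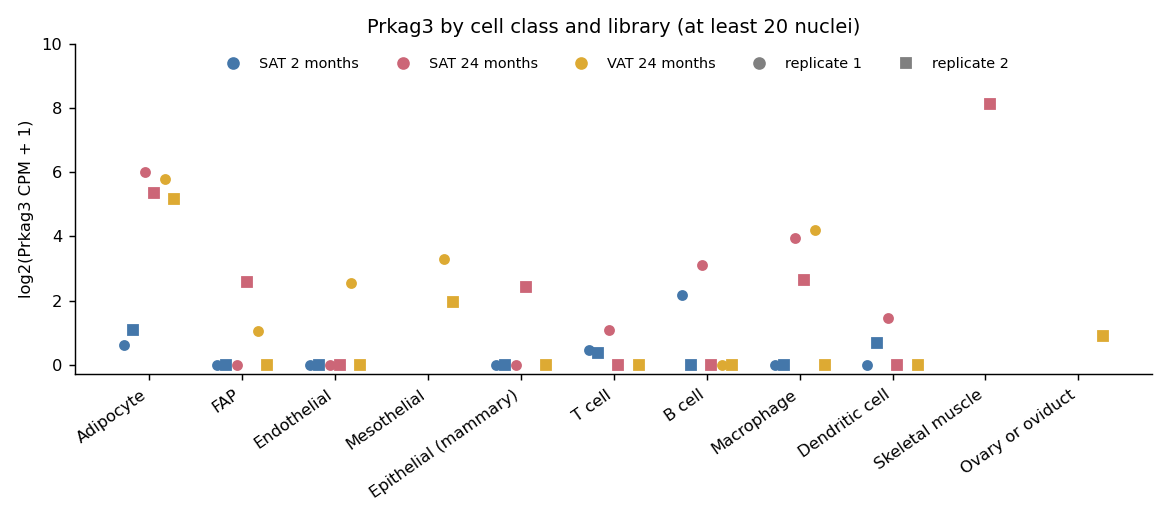
Prkag3 level, as log2(CPM + 1), in each cell class and library with at least 20 nuclei (colours the 3 groups, circles replicate 1, squares replicate 2). The 4 aged adipocyte values (35.2 to 63.8 CPM) lie below the single skeletal muscle value (279 CPM) and above every value of the other named classes, of which the highest is 17.3 CPM in macrophages.

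The other members had broader distributions. Prkag2 had its highest class medians over libraries in endothelial nuclei (305 CPM, range 102 to 435) and adipocytes (276 CPM, 207 to 466), whose ranges overlapped, and stood at 90.6 CPM (60.3 to 98.2) in mammary epithelial nuclei. Prkag1 was highest among well-filled classes in T cells, at 132 CPM (118 to 161), against 74.2 CPM (61.2 to 78.9) in adipocytes, with no overlap. Prkaa2 was higher in mammary epithelial nuclei (50.4 CPM, 38.5 to 65.8) than in adipocytes (28.4 CPM, 16.3 to 35.6), again without overlap, and stood at 3.57 to 5.76 CPM in all immune nuclei together. Prkaa2 made up 50% to 65.3% of α subunit UMIs in mammary epithelial nuclei and 7.89% to 15.7% in immune nuclei. Prkab1 ran the other way from Prkab2 between these classes. It was at 56.9 CPM (44.1 to 93.8) in mammary epithelial nuclei and at 14.9 CPM (9.40 to 20.3) in adipocytes, the lowest median of the named classes, while Prkab2 was at 9.16 CPM (0 to 21.3) and 19.0 CPM (10.2 to 35.2). Prkaa1 had medians of 67.9 CPM in endothelial nuclei (27.0 to 107) and 63.6 CPM in adipocytes (25.8 to 78.9), against 34.0 to 43.8 CPM in FAPs, T cells, B cells, macrophages and mammary epithelial nuclei. Classes come from the same nuclei, so no test was run between them.

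The tests with age and depot in the other classes called 0 of 33 and 0 of 22 tests of a member, over 7 and 5 classes (edgeR, adjusted p). Of these, 2 and 0 had an unadjusted p under 0.05, and DESeq2 called 0 in both. T cells, B cells and macrophages were also part of the sum of all immune nuclei, so the tests were not all on separate nuclei. Background calls with age were 11.8% of genes in T cells, 6.31% in mammary epithelial nuclei, 0.443% in B cells, 0.0351% in endothelial nuclei, and 0% in FAPs, macrophages and all immune nuclei together, so in most classes hardly any gene passed. Between depots the background was 0% in all 5 classes. The 2 tests with an unadjusted p under 0.05 were in mammary epithelial nuclei (19.4% of all genes there), where Prkab1 differed by -0.72 ± 0.25 (edgeR, adjusted p = 0.125) and Prkag2 by 0.47 ± 0.21 (adjusted p = 0.25). Prkag3 did not pass the filter on low counts outside adipocytes.

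Since Prkag3 is known from muscle, skeletal muscle transcripts in the adipocyte nuclei were summed over the 12 muscle markers. The sum was 67.4 and 62.0 CPM in adipocytes of SAT at 2 months, 52.3 and 63.8 CPM in SAT at 24 months, and 96.5 and 82.3 CPM in VAT, and 1, 2, 3, 0, 2 and 8 of the markers were at 0 in the same order. Within the list, Acta1, which encodes skeletal muscle actin, moved with Prkag3. Acta1 stood at 2.70 and 3.38 CPM in young SAT, 29.2 and 31.8 CPM in aged SAT, and 67.1 and 42.3 CPM in VAT. The other 11 markers summed to 64.7 and 58.6 CPM in young SAT, 23.1 and 32.01 CPM in aged SAT, and 29.4 and 40.0 CPM in VAT, so without Acta1 the list was higher in the young libraries.

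The ratio of Prkag3 to Ttn, the gene of the giant sarcomere protein titin, was 0.0119 in the skeletal muscle nuclei (13 against 1091 UMIs). In adipocytes it was 0.0313 and 0.0667 in SAT at 2 months, 11.8 and 6.28 in SAT at 24 months, and 8.80 and 3.75 in VAT. Ttn had the most UMIs of the markers in the muscle nuclei, and the contrast was smaller with Acta1. Prkag3 had 13 UMIs against 127 of Acta1 in the muscle nuclei. In adipocytes it had 1 against 5 and 1 against 3 in young SAT, and 94 against 43 and 226 against 181 in aged SAT. In VAT the counts were 440 against 540 and 15 against 18. Of the aged adipocyte nuclei with Prkag3, 90.8%, 85.1%, 77.8% and 72.7% held no UMI of any muscle marker, beside 92.5%, 90.3%, 86.7% and 88.03% of the other adipocyte nuclei, which were shallower. In adipocyte nuclei without any muscle UMI, Prkag3 stood at 0.602 and 1.23 CPM in the young SAT libraries, 63.8 and 38.6 CPM in those of aged SAT, and 50.5 and 27.5 CPM in VAT.

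Prkag3 shares 1239 bases with Cyp27a1, which encodes the sterol 27-hydroxylase of bile acid synthesis and lies on the opposite strand of chromosome 1 from 74752314 to 74777056. Cyp27a1 was looked at for this overlap after its position was seen. It stood at 62.6 and 63.1 CPM in adipocytes of SAT at 2 months, 67.2 and 95.3 CPM in SAT at 24 months, and 76.3 and 101 CPM in VAT. The number of Prkag3 UMIs per Cyp27a1 UMI was 0.00862 and 0.0179 in SAT at 2 months, 0.9495 and 0.417 in SAT at 24 months, and 0.717 and 0.349 in VAT. The ratio was not constant over libraries, and reads in the shared bases could not be told apart without knowing whether the counting used strand. Cyp27a1 stood at 91.2 to 118 CPM in FAPs of the aged libraries and at 124 to 159 CPM in their macrophages. Prkag3 stood there at 0 to 4.93 CPM and 0 to 17.3 CPM. How much the overlap adds to Prkag3 was not tested.

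The other neighbours of Prkag3 on chromosome 1 did not share its pattern. Ttll4 stood at 71.0 to 78.8 CPM in adipocytes of SAT at 2 months and 41.3 to 52.4 CPM in the aged libraries. Stk36 was at 3.87 to 9.40 CPM over all libraries. Wnt10a was at 0 to 2.70 CPM, and Wnt6 at 0 to 1.08 CPM except for 14.1 CPM (6 UMIs) in VAT replicate 2.

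**Figure D4:**
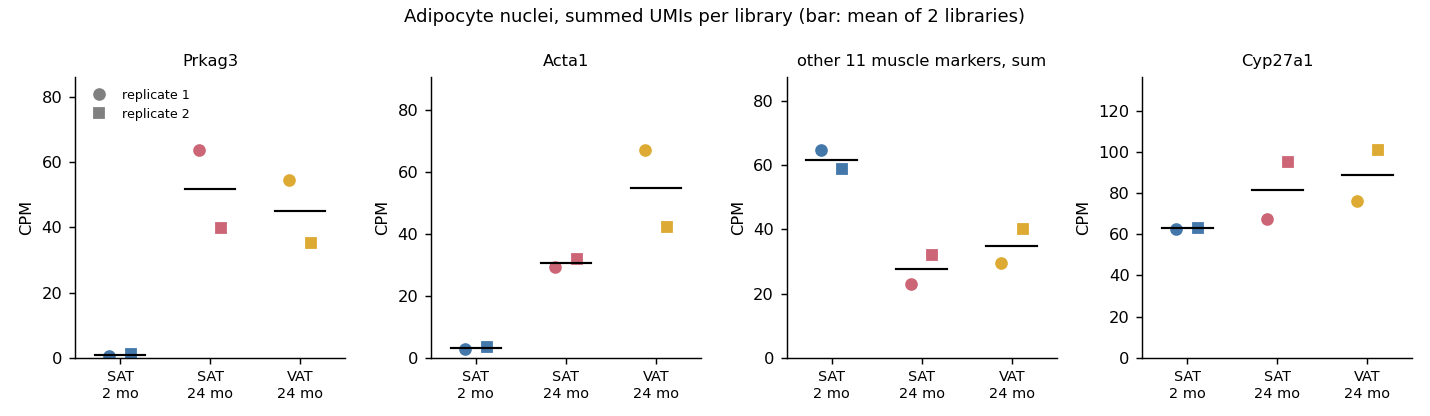
CPM in adipocyte nuclei of each library for Prkag3, Acta1, the sum of the other 11 skeletal muscle markers, and Cyp27a1, which overlaps Prkag3 on the opposite strand (circles replicate 1, squares replicate 2, black lines the mean of 2 libraries). Acta1 is higher in all 4 aged libraries, as Prkag3 is, whereas the other muscle markers are highest in SAT at 2 months (64.7 and 58.6 CPM).

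Over 52 sums of a library and class with at least 20 nuclei, the genes with the pattern most like that of Prkag3 among 19888 compared were Acta1 (Pearson r of log2(CPM + 1) = 0.81), Gm29773 (0.79), BB218582 (0.78), Eepd1 (0.74) and Apex2 (0.73). Without the skeletal muscle sum, r was 0.73, 0.73, 0.71, 0.76 and 0.69. These sums share libraries and depth, so r is a description. Eepd1, a gene of an endonuclease-domain protein that the study used to define an adipocyte cluster in these libraries, stood at 388 and 260 CPM in adipocytes of SAT at 2 months, 2436 and 1559 CPM in SAT at 24 months, and 2452 and 1680 CPM in VAT. Apex2, which encodes a DNA repair endonuclease, stood at 174 and 200 CPM, 1139 and 538 CPM, and 775 and 526 CPM in the same order. All aged libraries exceeded the young ones for both genes, as for Prkag3. Both genes were picked for their likeness to Prkag3 over sums that include these adipocyte sums, so the shared pattern adds no support. Of 12947 genes tested in adipocytes, 2831 were higher in aged than in young SAT without overlap. Among the other members the highest r was that of Lgals8 with Prkag1, at 0.86, which was 0.576 without the skeletal muscle sum.

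Around the enzyme, 74 genes that act on AMPK, are its substrates or are related kinases were followed in adipocytes, and 67 of them passed the filter on low counts. In SAT, 2 were higher and 10 lower at 24 than at 2 months (edgeR, adjusted p under 0.05), which is 17.9% called against the 13.7% of all genes, of which 6.63% were higher and 7.07% lower. The median log2 fold change of the list was -0.15, and that of all genes 0.00. The number of calls was 5 without SAT 2 months replicate 1 and 3 without SAT 2 months replicate 2, where Acacb, Gpam and Srebf1 were left. Such a fit leaves a group of 1 library, assumed to vary like the other groups, and so has less replication. Among the genes that lost their call in both, for example, the log2 fold change of Stk11 was -0.999 and -0.842 and that of Crtc3 1.16 and 1.33 in the same order, against -0.95 and 1.22 with all libraries. The number was also smaller without either aged SAT library, where 8 of the 12 were left each time, with Nfe2l2 and Ulk2 lost in both cases, Flcn and Mtfr1l without replicate 1, and Plin5 and Stk11 without replicate 2. Without the filter on low counts Flcn, Mtfr1l, Nfe2l2 and Stk11 were not called, with the looser nuclei filter Nfe2l2 and Stk11, and in DESeq2 Cidea and Nfe2l2.

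Genes of fat synthesis and storage made up the group with the most calls, with 5 of 12 lipid metabolism genes lower and 0 higher. That is 41.7% called against 13.7% of all genes. Acacb encodes the acetyl-CoA carboxylase that makes malonyl-CoA at mitochondria. It stood at 1770 and 2160 CPM in young SAT, 144 and 102 CPM in aged SAT, and 315 and 103 CPM in VAT, a difference with age of -3.84 ± 0.47 (edgeR, adjusted p = 0.000452). Srebf1, a transcription factor for lipogenic genes, fell from 643 and 769 CPM to 162 and 227 CPM (-1.69 ± 0.29, adjusted p = 0.00318). Plin5, which encodes a lipid droplet coat protein, fell from 18.3 and 29.3 CPM to 4.07 and 4.57 CPM (-2.24 ± 0.58, adjusted p = 0.0263). The other called genes were Acaca, the cytosolic acetyl-CoA carboxylase, at -1.51 ± 0.32, and Gpam, a glycerol-phosphate acyltransferase, at -1.42 ± 0.25, both named after their values were seen. Lipe, which encodes hormone-sensitive lipase, was at -0.34 ± 0.28 (adjusted p = 0.446).

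Among the upstream kinases and their partners, 1 of 7 was called, or 14.3% against the background of 13.7%. Stk11, which encodes LKB1, the main kinase that activates AMPK, fell from 300 and 342 CPM to 165 and 132 CPM (-0.95 ± 0.25, edgeR adjusted p = 0.0291), a call that was lost without either young SAT library. Among phosphatases and inhibitors, 1 of 7 was called, again 14.3%. This was Cidea, which encodes a lipid droplet protein that binds the AMPK β subunit. Cidea fell from 22.7 and 50.7 CPM to 3.40 and 5.10 CPM (-2.80 ± 0.71, edgeR adjusted p = 0.0234), and DESeq2 gave an adjusted p of 0.157. The study itself used Cidea and Acacb as markers of an adipocyte cluster in these libraries, so these are not independent evidence of a direction.

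Of the growth and autophagy genes, 1 of 11 was higher and 1 lower, or 18.2% called against 13.7% of all genes. Ulk2, a kinase that starts autophagy, rose from 156 and 133 CPM to 227 and 236 CPM (0.83 ± 0.24, edgeR adjusted p = 0.0391, and 0.0711 with library-size scaling). Flcn, which encodes folliculin, a regulator of lysosomal nutrient signalling, fell from 190 and 209 CPM to 76.7 and 100 CPM (-0.999 ± 0.249, edgeR adjusted p = 0.022). Of the transcription and mitochondrial targets, 1 of 13 was higher and 2 lower, or 23.1% called against the same 13.7%. Crtc3, a coactivator of CREB, rose from 44.2 and 50.7 CPM to 108 and 89.3 CPM (1.22 ± 0.26, edgeR adjusted p = 0.00921). Mtfr1l, a regulator of mitochondrial shape, and Nfe2l2, the antioxidant transcription factor NRF2, were lower, at -1.05 ± 0.27 and -0.83 ± 0.24 (edgeR, adjusted p = 0.0234 and 0.0398). None of the called genes of these groups was among the 3 genes called under all 17 alternative settings. None of 8 glucose handling genes and none of 9 AMPK-related kinases was called, against 13.7% of all genes. In those groups, Tbc1d1 had an adjusted p of 0.139 and Mark1 of 0.0956.

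Between depots, 0 of the 67 genes were called, against 0.139% of all genes, and 5 of the 67 had an unadjusted p under 0.05, beside 6.8% of all genes (Acaca, Cidea, Plin5, Stk11 and Tsc2, named after their values were seen). DESeq2 called none of these either. Cidea was the closest in edgeR, at 2.66 ± 0.69 (adjusted p = 0.274), but its VAT libraries stood at 39.4 and 2.35 CPM, and its difference was -0.96 (adjusted p = 0.826) without VAT replicate 1, 3.18 (adjusted p = 0.0158) without VAT replicate 2 and 2.54 (adjusted p = 0.035) without SAT 24 months replicate 1. In each of these edgeR fits the lone library of a group was assumed to vary like the others. Without the filter on low counts Cidea was at 2.64 (adjusted p = 1.92e-05).

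**Figure D5:**
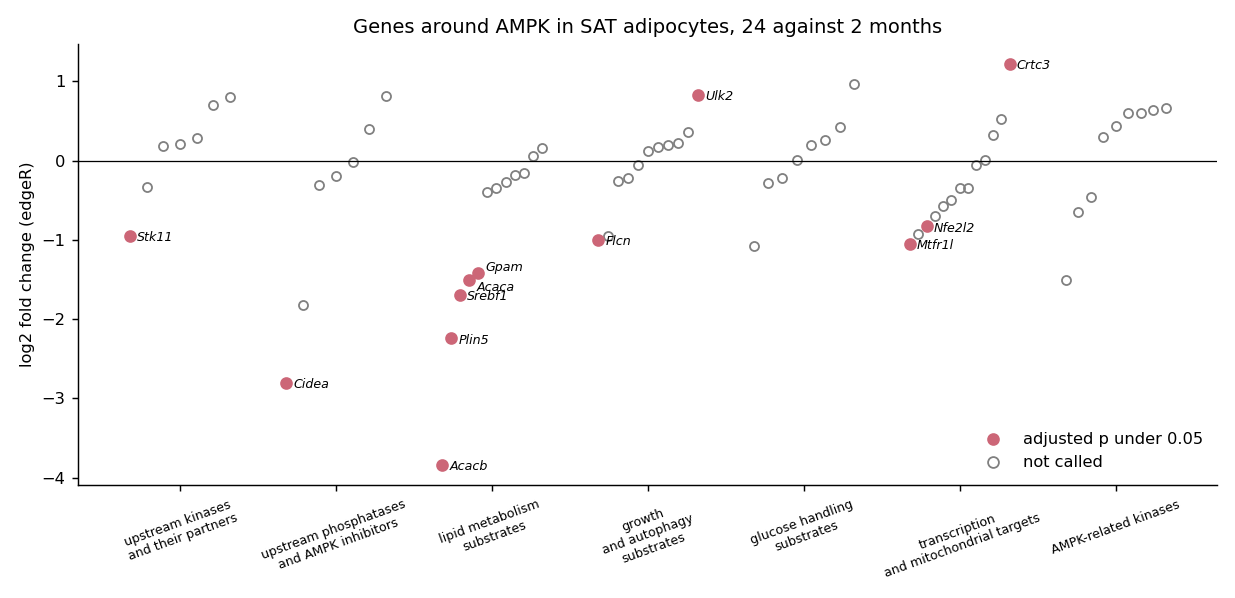
Log2 fold change (edgeR) in SAT adipocytes, 24 against 2 months, of the 67 tested genes around AMPK, sorted within 7 groups; filled points passed an adjusted p of 0.05 and are labelled. The lipid metabolism group holds 5 filled points, all lower, led by Acacb at -3.84, and the 2 genes that were higher are Ulk2 and Crtc3.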

How the data were processed

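Nuclei were isolated, captured on a Singleron microfluidic chip and sequenced, and the authors aligned and counted reads with Celescope against GRCm39; its version, the annotation release and the use of strand are not given in the sources used here. The deposited values are raw counts, the UMIs of each gene in each barcode, without normalization and with at least 500 UMIs per barcode. Positions were taken from GENCODE M39, where 98.7% of the listed genes were found.

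The study's filters were applied (more than 500 genes, more than 1000 UMIs, less than 15% of them mitochondrial); the nuclei it states after filtering differ from those left here in all 6 libraries. Counts were clustered (Python 3.11.15, scanpy 1.11.5, leidenalg 0.10.2) on 1000 variable genes without the members, 30 principal components, an own implementation of Harmony, 20 neighbours and a Leiden resolution of 2.0, and unnamed or unsplit immune nuclei again at 1.0. A cluster took the name of a fixed marker list with at least 3 markers over 2-fold, a mean log2 fold of at least 0.5 and a lead of 1.0 over the next list (0.5 among immune subtypes), unless its leading genes went against it; this naming rule was adjusted after clusters were seen. Names are candidate identities, and "-like" is implied. Scrublet's automatic threshold marked under 0.6% of nuclei, so no doublets were removed.

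Counts were added up for each class of each library, leaving out sums under 20 nuclei, and edgeR 4.0.16 (R 4.3.3; TMM, filterByExpr, quasi-likelihood test, 3 groups in 1 fit) compared SAT at 24 with 2 months and VAT with SAT at 24 months, two-sided, with Benjamini-Hochberg adjustment over all genes of a class. Epithelial nuclei and T cells were compared with age only, and mesothelial nuclei were not compared, for want of nuclei. DESeq2 1.42.0, scaling, filters, left-out libraries, clustering, doublets and muscle UMIs were varied. The pipeline was tested on simulated data. Nothing says that the libraries of a group came from separate cultures or dissections beyond the mice named, so p-values measure only the spread between these libraries. Exact (Poisson or Clopper-Pearson) 95% intervals and the floor of 3 UMIs cover counting error only. Named genes were all members, up to 3 called genes per pathway group and direction with the largest change, the 5 genes most like Prkag3, the nearest 2 protein-coding genes on each side of it, and the muscle list. The members and lists were chosen with earlier results of these data known. Values of Prkag3 in the other adipocyte clusters are not reported here.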

Additional observations from a re-analysis of the deposited data

Results flagged for a closer look

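Between cell classes, 2 members differed with age in SAT in opposite directions, with no overlap between the ages in either class, and these differences between classes were not tested. Prkaa2 was at -0.48 on the log2 scale in adipocytes and 0.45 in mammary epithelial nuclei. Prkag2 was at -0.65 in adipocytes, 0.36 in all immune nuclei together and 0.47 in mammary epithelial nuclei. None of these values passed an adjusted p of 0.05 in edgeR. Groups without overlap between the ages were common among all genes tested. In adipocytes, 2831 of 12947 genes were higher and 5000 lower without overlap. In all immune nuclei together they were 2878 and 4790 of 14372, and in mammary epithelial nuclei 3351 and 3404 of 13629.

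Prkag3 was also present in barcodes that the filters on nuclei removed, which no comparison above uses. In aged SAT it stood there at 5.36 and 16.7 CPM (15 and 63 UMIs) and in VAT at 14.7 and 3.82 CPM (37 and 23 UMIs), against 1.66 and 2.02 CPM in SAT at 2 months (4 UMIs each). The order of the libraries differed from that in adipocyte nuclei, where SAT replicate 1 was the highest. Groups of 2 libraries are too small to single out a library as an outlier.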

How the results depend on the processing

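Of the values recomputed, 113 of those that answer a comparison kept their side of the threshold or stayed within the spread, and 6 moved. With library-size scaling, 1 subunit (Prkag2, log2 fold change -0.84) was called with age in adipocytes in place of 0. The 12 pathway genes called with age were 3 to 12 when 1 library was left out (5 without SAT 2 months replicate 1, 3 without SAT 2 months replicate 2) and 9 to 14 otherwise, and 3 (Acacb, Gpam, Srebf1) were called under all 17 alternatives. Between depots, 1 pathway gene (Cidea) was called without the filter on low counts, and 0 to 1 when 1 library was left out. The Prkag3 ratio of 61.3 ranged from 39.6 to 87.5 with 1 library left out and from 45.1 to 78.0 otherwise.

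Signs of differences that were not called turned in 23 cases. With age, Prkaa1 was at 0.18 without the filter on low counts, 0.0889 with the looser nuclei filter, 0.0263 without Harmony, 0.0019 at resolution 1.0, and -0.14 to 0.14 with 1 library left out. Prkab1 was at 0.0782 without the filter and 0.0165 over 1500 UMIs, and at -0.34 to 0.0336 with 1 library left out. Prkag1, at 0.00 in the fit reported, was at -0.18 with library-size scaling (the shift of the median of all genes, so no change of its own), -0.0060 with 4 libraries only, -0.0031 with the looser filter, -0.0681 without Harmony, -0.0646 at resolution 1.0, -0.0712 over 1500 UMIs, -0.0385 without muscle UMIs and -0.11 to 0.23 with 1 library left out. Between depots, Prkab1 was at -0.66 to 0.0168, Prkag1 at -0.089 to 0.31 and Prkag2 at -0.28 to 0.26 with 1 library left out. The cause was not tested.

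A block for the replicate number raised the calls in adipocytes with age from 1774 to 2178 and between depots from 18 to 50, and called 0 subunits and 14 pathway genes with age. Same-numbered libraries correlated at -0.09, 0.02 and 0.12 in their deviations from the group means, so the numbers were not taken as pairs; whether aged libraries of the same number share a mouse is not given. DESeq2 called 1258 genes with age and 34 between depots, and library-size scaling 649 higher and 1299 lower genes against 858 and 916. Removing the 5% of nuclei with the highest doublet scores, chosen after the data were seen, changed no count of called subunits or pathway genes. The removal of automatically called doublets was not run, because the caller marked too few nuclei. Depth limits Prkag3 in young adipocytes, where 3 UMIs are 1.62 and 3.38 CPM.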
